A study of Mus musculus with 13 samples.

Results

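Lunch skipping in mice was compared with control feeding by counting messenger RNA per gene in epithelial cells of the jejunum, the middle section of the small intestine. The comparison took in 6 of the series' 13 libraries, 3 labelled as the lunch skipping pattern (LSF) and 3 labelled as control (con), chosen by their labels alone, with all genes of the count table. LSF mice were fed from ZT12 to ZT16 and again from ZT20 to ZT24 for 2 weeks, where ZT (zeitgeber time) counts hours from lights on. When con was fed, the hour of sampling and the strain, age and sex of the animals are not stated in the sources used here. The labels number the libraries of a group as biological replicates but do not say that they came from separate animals. P-values therefore measure the spread between these libraries, which may be technical. Per the labels, all mice shared the same environment and cage conditions. The tissue was digested with enzymes, and flow cytometry kept cells that carried EpCAM and lacked CD45, CD11b, CD3 and B220, which are markers of blood-derived cells. Breakfast skipping (BSF, 2 libraries, fed from ZT16 to ZT24) and dinner skipping (DSF, 2 libraries, fed from ZT12 to ZT20) served here only to ask where LSF differed from another restricted pattern. A further breakfast skipping group with 3 libraries (BSF_C) entered the fit but no comparison.

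The jejunal epithelium digests and absorbs most of the sugar, amino acid and fat of a meal. Enterocytes on the villi carry brush border enzymes and nutrient transporters and pack dietary fat into chylomicrons, while stem cells in the crypts divide to replace them. Meal timing is known to set the phase of intestinal clocks, and fasting is known to raise glucocorticoids and to switch cells from glucose to fatty acid use through the nuclear receptor PPARA. These are background facts and none was measured here.

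Library totals ran from 4851239 to 5202146 counts in con and from 7592112 to 8385260 in LSF, and 14688 to 14957 genes had a count in each con library against 16442 to 16620 in each LSF library. The first principal component held 77.41% of the variance of the 13 libraries and set con (-122.2 to -116.6) apart from all 10 others (29.7 to 40.9), so that feeding and whatever else sets con apart cannot be told apart. Spearman correlations over genes were 0.990 to 0.992 within con, 0.994 to 0.995 within LSF and 0.903 to 0.911 between them. Epcam, which encodes the protein used for the sort, was at 193 ± 15.8 CPM (counts per 1e+06 counts of the scaled library, mean ± SD, n = 3) in con and 322 ± 7.39 in LSF. The 12 enterocyte markers summed to 10062 to 11386 CPM in con and 11277 to 11342 in LSF, but 6 of them rose and 5 fell. The transcription factor gene Hnf4a fell from 3393 ± 271 to 1346 ± 26 CPM and the E-cadherin gene Cdh1 from 2020 ± 129 to 718 ± 7.46. The alkaline phosphatase gene Alpi rose from 598 ± 51.7 to 2994 ± 40.9 CPM and the keratin gene Krt20 from 182 ± 7.11 to 643 ± 16.2. Markers of cells that the sort should not hold moved with the groups. The 23 skin keratinocyte markers summed to 1015 to 1177 CPM in con and 8.37 to 9.66 in LSF, with 8 of them at 0 in every LSF library. The 12 heart muscle markers summed to 120 to 133 CPM in con, of which Ldb3 held 117, and to 347 to 389 in LSF, with 7 of them at 0 in every con library. The leukocyte sum (19 markers, 4 at 0 in con) was 50.6 to 52.7 CPM in con and 315 to 325 in LSF. Of its 15 tested genes 10 rose and 3 fell. The granzyme genes Gzma and Gzmb and the T cell gene Cd8a averaged 78.1, 79.3 and 62.9 CPM in LSF against 0.146, 0.36 and 0.707 in con. The myeloid genes Csf1r, Itgam and S100a8 fell, whereas the myeloid genes Itgax and Lyz2 averaged 5.37 and 6.67 CPM in LSF against 0.222 and 0.361 in con. Ptprc, which encodes CD45, had 2 counts in all of con and 17.6, 18.4 and 20.1 CPM in LSF, a ratio of 130.49 (95% counting interval 35.909 to 1081). The fibroblast sum was 0.208 to 1.86 CPM in con and 39.8 to 65.6 in LSF, and the melanocyte sum 18.2 to 20.2 in con and 128 to 184 in LSF. In bulk samples fewer cells of a type and less RNA per cell cannot be told apart. The part of these transcripts in the results below was not tested.

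**Figure D1:**
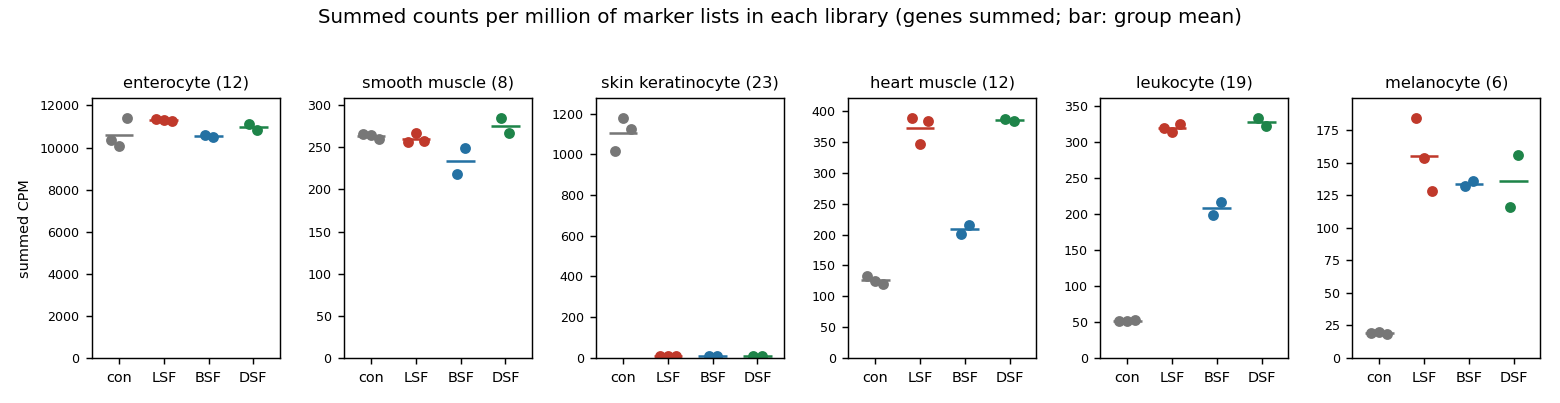
Summed CPM of 6 marker lists in every library (dots) of con, LSF, BSF and DSF on linear axes from 0. The enterocyte and smooth muscle sums of con and LSF lie close together, although of 5 tested smooth muscle genes 2 rose and 3 fell. The skin keratinocyte sum is high in the 3 con libraries only, and the heart muscle, leukocyte and melanocyte sums are higher in each LSF library than in any con library.

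Of 14300 genes tested, 10293 differed between LSF and con at an adjusted p under 0.05 (edgeR quasi-likelihood test with Benjamini-Hochberg adjustment), which is 72% of all genes. Of these, 5569 (38.9% of genes tested) were higher in LSF and 4724 (33%) lower, and at a change of at least 2-fold 2898 (20.3%) were higher and 1351 (9.45%) lower, 4249 (29.7%) in all. In 5592 genes (39.1%) all LSF libraries were higher than all con libraries, and in 4717 (33%) all were lower. With most genes called, a gene's call alone says little, and counts in a gene list are read against these shares. The median log2 fold change over all genes was 0.10. The con libraries held fewer counts. After all libraries were thinned to the smallest total, each gene taken by the naming rule given below kept its direction and its side of the threshold in the comparison it was taken for. Genes chosen after their values were seen were not recomputed.

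The genes with the largest changes were mostly not known for a role in enterocytes. Mb, which encodes the oxygen carrier myoglobin of muscle, had no count in con and stood at 103, 87.4 and 97.3 CPM in LSF, at least 448.61-fold higher against a floor of 3 counts over the con libraries. The muscle chaperone gene Hspb7 (at least 206.21-fold), the melanosome and macrophage gene Gpnmb (at least 136.82-fold), the intermediate filament gene Nes (at least 103.4-fold), the pericyte gene Rgs5 (at least 86.795-fold) and the calcineurin regulator Rcan2 (at least 69.99-fold) were likewise at 0 in all con libraries. Pln, the phospholamban gene of heart muscle, had 1 count in con and 195, 172 and 192 CPM in LSF, a ratio of 2609.8 (95% counting interval 468.16 to 103100). The heart myosin gene Myh6, at 190, 166 and 185 CPM, was at least 841.85-fold higher. Across the LSF libraries Mb, Hspb7 and Pln were each lowest in LSF 2, as was the summed heart muscle list (389, 346 and 385 CPM), which holds Myh6. Gpnmb was highest in LSF 1 and lowest in LSF 3, at 36.6, 28.1 and 22.6 CPM, as was the melanocyte sum at 184, 154 and 128 CPM. Cox6a2, a muscle gene given below, was by a small margin lowest in LSF 3 instead. What these orders of the LSF libraries reflect was not tested. In BSF, where the heart muscle sum was 201 and 216 CPM, Mb averaged 41.3 CPM and Pln 72.6. In DSF, where that sum was 387 and 384 CPM, Mb averaged 93.3 CPM and Pln 184.

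The 8 largest falls were all transcripts of cornified skin or related squamous epithelium. Hrnr, which encodes the cornified envelope protein hornerin, stood at 79.1, 85.0 and 89.6 CPM in con and had no count in any LSF library, at least 663.71-fold lower. Rptn (at least 463.08-fold), Kprp (328.2), Psapl1 (214.68), Krt16 (183.77), Krt6b (172.53), Il1f5 (169.16) and Krt6a (153.98) were also without a count in LSF. Calm4, a calmodulin-like gene of differentiating keratinocytes, was at 203, 255 and 224 CPM in con and 0 in LSF, at least 1788-fold lower. All 23 skin keratinocyte markers were lower in LSF. Of these 9 genes, 8 had no count in the BSF and DSF libraries either, and the exception, Krt16, averaged 0.065 CPM in DSF.

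Genes of gluconeogenesis, the making of glucose from amino acids and other precursors, were mostly higher in LSF. Of 16 tested, 13 rose and 2 fell, with a median log2 fold change of 1.52 beside 0.10 over all genes. Pck1 (chr2:173153048-173159273 on GRCm38, + strand), which encodes the cytosolic enzyme that commits oxaloacetate to glucose and glycerol synthesis, was at 16.7, 14.3 and 15.0 CPM in con and 492, 483 and 493 in LSF. The lowest LSF library was far above the highest con library, and the log2 fold change was 4.99 ± 0.08 (SE, n = 3 and 3, adjusted p = 1.97e-47). Gpt, which makes pyruvate from alanine, rose from 53.4 ± 4.53 to 529 ± 6.64 CPM. G6pc, which encodes the last step that frees glucose, rose from 18.2 ± 2.53 to 165 ± 4.02 CPM. The fallers were Got2, the mitochondrial aspartate transaminase (log2 fold change -0.91 ± 0.06), and Pck2, the mitochondrial counterpart of Pck1 (-0.45).

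Genes of fatty acid oxidation and other PPARA targets were also higher on the whole, with Cpt1a among the exceptions. Of 38 tested, 30 rose and 6 fell (median 0.88). Pdk4 (chr6:5483351-5496309, - strand), the kinase that keeps pyruvate out of the citric acid cycle, went from 6.81, 8.53 and 8.52 CPM in con to 106, 111 and 106 in LSF, without overlap (log2 fold change 3.76 ± 0.12). Acaa1b, a peroxisomal thiolase, had 9 counts in all of con and averaged 59.6 ± 0.707 CPM in LSF (6.50 ± 0.21). Angptl4, an inhibitor of lipoprotein lipase, rose from 3.18 ± 1.26 to 40.7 ± 1.63 CPM. Cpt1a, the carnitine palmitoyltransferase that brings long-chain fatty acids into mitochondria, went the other way. It was at 684, 696 and 766 CPM in con and 250, 252 and 245 in LSF, a log2 fold change of -1.52 ± 0.05 (adjusted p = 8.5e-32). Ppara itself was at 64.0, 60.9 and 51.1 CPM in con and 53.5, 47.0 and 48.4 in LSF, so that the groups overlapped, and its log2 fold change was -0.24 ± 0.09 (adjusted p = 0.014).

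Of 11 genes known to respond to glucocorticoids, 9 rose and 1 fell (median 0.67). Sgk1 (chr10:21882184-21999903, + strand), a kinase that regulates sodium transport, was at 15.9, 13.3 and 13.1 CPM in con and 134, 137 and 141 in LSF (log2 fold change 3.28 ± 0.10). The metallothionein genes Mt2 and Mt1, whose products bind zinc, rose by 3.74 ± 0.21 and 1.78 ± 0.17. Mt2 stood at 2.68, 1.87 and 1.84 CPM in con and 28.8, 29.7 and 28.2 in LSF. Fkbp5, a co-chaperone of the glucocorticoid receptor, rose from 31.8 ± 1.83 to 60.2 ± 3.45 CPM. Tsc22d3, the glucocorticoid-induced leucine zipper gene, rose by 0.34 ± 0.07 from 112 ± 12.2 to 141 ± 3.52 CPM. Dusp1, a phosphatase gene of this list and of the immediate early list, fell by 0.60 ± 0.08 on the log2 scale. Among 18 genes of insulin and FOXO signalling, 6 rose and 7 fell (33.3% and 38.9%), near the shares over all genes (38.9% and 33%). Klf15 (chr6:90462576-90475238, + strand), a transcription factor of amino acid breakdown and gluconeogenesis, was at 1.45, 1.25 and 0.921 CPM in con and 18.6, 18.5 and 19.8 in LSF (3.95 ± 0.27). The cyclin G2 gene Ccng2 rose by 1.78 ± 0.09, and the pseudokinase gene Trib1 fell by 1.57 ± 0.06.

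**Figure D2:**
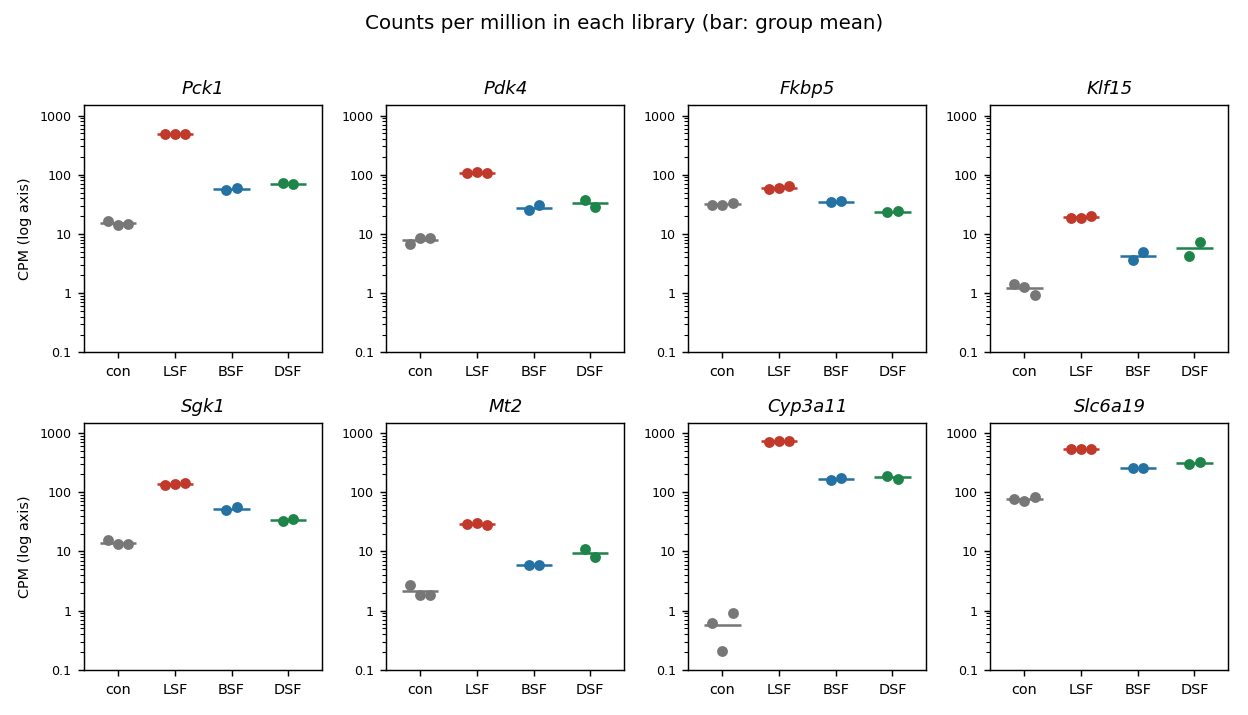
CPM of 8 genes in every library (dots, log axis) with the group mean (bar) for con, LSF, BSF and DSF. For Pck1 the LSF libraries sit between 483 and 493 CPM, the con libraries between 14.3 and 16.7, and the BSF and DSF libraries between them at 54.5 to 71.2.

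Fat uptake and export genes were nearly all higher in LSF, and genes of sterol synthesis lower. Of 32 genes of lipid absorption and chylomicron assembly, 31 rose and 1 fell (median 1.44). Apoa4, an apolipoprotein of chylomicrons, was at 938, 910 and 1089 CPM in con and 14422, 14239 and 14012 in LSF (log2 fold change 3.86 ± 0.05). Apoa1, the main protein of high density lipoprotein, rose by 3.26 ± 0.05, and Apob, the structural protein of chylomicrons, by 2.19 ± 0.05. The fatty acid carrier genes Cd36 and Fabp2 rose by 4.23 ± 0.20 and 3.38 ± 0.09. Of 25 genes of cholesterol synthesis and its control, 1 rose and 18 fell (median -0.72). Cyp51, a sterol demethylase gene, was at 164, 161 and 169 CPM in con and 55.0, 64.5 and 56.3 in LSF (log2 fold change -1.49 ± 0.07). Srebf2, the transcription factor that drives this pathway, fell by 1.20 ± 0.06. The riser was Ebp, a sterol isomerase gene (0.56 ± 0.10). Of 15 genes of fatty acid synthesis, 3 rose and 8 fell (median -0.37). The desaturase genes Fads1, Fads2 and Scd2 fell by 1.76 ± 0.07, 1.65 ± 0.06 and 1.34 ± 0.05. Scd1, another desaturase gene, rose from 8.34 ± 3.35 to 31.8 ± 1.39 CPM, and Srebf1, the transcription factor of fatty acid synthesis, from 87.2 ± 9.02 to 185 ± 3.07 CPM.

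Genes that digest carbohydrate and peptides were higher in LSF throughout, and amino acid transporters in the main. All 14 tested genes of carbohydrate digestion and sugar transport were higher in LSF (median 2.18), and so were all 15 brush border peptidases (median 1.78). Lct, which encodes lactase, was at 128, 129 and 160 CPM in con and 1752, 1700 and 1681 in LSF (3.62 ± 0.06). The glucose transporter gene Slc2a2 and the trehalase gene Treh rose by 3.15 ± 0.07 and 3.53 ± 0.08. Slc5a1, the sodium-coupled glucose transporter of the brush border, was already at 635 ± 48.5 CPM in con and rose to 1226 ± 12.8, by 0.95 ± 0.05. Among the peptidases, Ace rose from 92.1 ± 14.5 to 993 ± 14.0 CPM and Mme from 48.9 ± 10.6 to 639 ± 12.7. Of 16 amino acid and peptide transporters, 11 rose and 4 fell (median 0.77). Slc6a19 (chr13:73679745-73704865, - strand), the main brush border carrier of neutral amino acids, was at 75.8, 71.9 and 82.0 CPM in con and 546, 545 and 538 in LSF (2.83 ± 0.06). Slc7a15 and Slc6a20a, further amino acid transporter genes, rose by 4.16 ± 0.10 and 2.30 ± 0.07. Slc1a5, a glutamine carrier gene, was among the fallers (-1.16 ± 0.07). Of 14 genes of microvillus structure 13 rose and none fell (median 1.17), among them the protocadherin genes Cdhr2 (2.39 ± 0.06) and Cdhr5 (1.63 ± 0.05) and the actin bundler Espn (2.83 ± 0.08).

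Genes that metabolise drugs and other foreign compounds had one of the highest medians of the lists. Of 44 tested, 43 rose and 1 fell (median 2.12). Cyp3a11 (chr5:145854426-145879964, - strand), the main drug-oxidising P450 of mouse liver and gut, had 8 counts in all of con and stood at 694, 743 and 732 CPM in LSF (log2 fold change 10.26 ± 0.14). Cyp2c29, another P450 gene, had 1 count in con and 680 in LSF, a ratio of 403.33 (95% counting interval 72.147 to 15954). Cyp4v3, which hydroxylates fatty acids, rose from 42.4 ± 1.43 to 437 ± 6.95 CPM and the glutathione transferase gene Gstm3 from 63.0 ± 2.9 to 525 ± 10.5 CPM. Cyp1a1, a target of the aryl hydrocarbon receptor, rose from 10.9, 16.6 and 13.1 CPM to 69.3, 77.5 and 69.0. Nqo1, a quinone reductase gene, was the faller (-0.27 ± 0.09). Counts were not separated by copy here, so members of these families with near-identical sequence are uncertain. Among smaller metabolic lists, 5 of 10 retinoid genes rose and 2 fell, led by Aldh1a1, which makes retinoic acid (3.82 ± 0.08), Rdh7 (2.85 ± 0.07) and Rbp2 (1.82 ± 0.08). Of 10 iron genes 6 rose and 2 fell, the ferritin genes Fth1 (2.13 ± 0.05) and Ftl1 (1.57 ± 0.05) and the folate and heme carrier gene Slc46a1 (3.31 ± 0.08) among the risers. The zinc list held 6 risers and 2 fallers of 9, with the manganese exporter gene Slc30a10 (3.31 ± 0.10) and the zinc importer gene Slc39a4 (0.93 ± 0.06) beside Mt2. All 5 bile acid genes rose, the exporter subunit genes Slc51b (1.43 ± 0.15) and Slc51a (0.36 ± 0.07) and Abcc3 (0.53 ± 0.08) among them. Of 20 glycolysis genes 13 rose and 5 fell. Eno1 and Gapdh rose by 2.00 ± 0.07 and 1.30 ± 0.05, whereas Hk2, which traps glucose in the cell, fell by 2.04 ± 0.09.

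**Figure D3:**
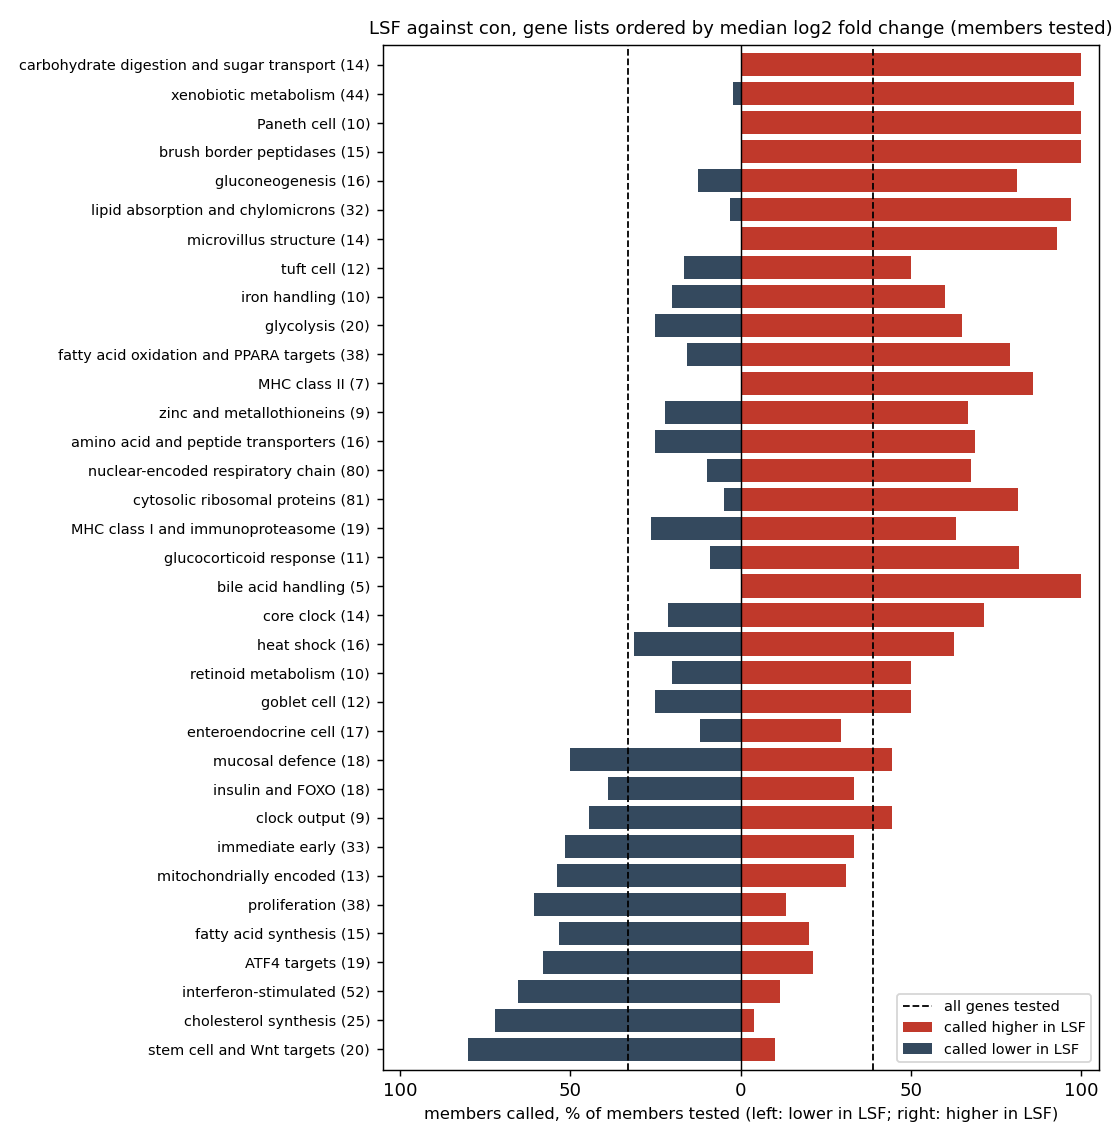
Percent of the tested members of 35 gene lists that were higher or lower in LSF than in con, ordered by the lists' median log2 fold change. The dashed lines mark the shares over all genes (38.9% higher, 33% lower). Sugar, drug metabolism, Paneth cell and peptidase lists lie at one end and stem cell, cholesterol and interferon lists at the other.

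The circadian clock is a loop in which Arntl and Clock switch on the Per and Cry genes, whose products repress them, with Nr1d1, Nr1d2 and Rora in a side loop. Of 14 core genes 10 rose and 3 fell (median 0.46), and 4 rose and 1 fell at least 2-fold. Arntl (chr7:113207465-113314126, + strand), which encodes BMAL1, was at 30.6, 33.9 and 33.9 CPM in con and 29.7, 31.1 and 29.4 in LSF, groups that overlapped, with a log2 fold change of -0.12 ± 0.10 (adjusted p = 0.279). Nr1d1, the repressor of Arntl, was at 77.0, 84.2 and 91.0 CPM in con and 102, 94.3 and 95.8 in LSF (0.22 ± 0.07, adjusted p = 0.00851). This call rested on single libraries, since the adjusted p was 0.091 without con 1 and 0.0556 without LSF 1. Per2 (chr1:91415982-91459324, - strand) rose from 34.3, 40.3 and 37.3 CPM to 52.5, 52.7 and 50.9 (0.48 ± 0.09). Cry1 (chr10:85131700-85185064, - strand) rose from 6.61, 9.98 and 8.06 CPM to 24.6, 28.4 and 27.6 (1.71 ± 0.14). Rora fell from 14.3 ± 1.46 to 3.18 ± 0.0377 CPM (-2.17 ± 0.21).

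Of 9 tested output genes of the clock 4 were higher and 4 lower (median -0.14). These shares, 44.4% and 44.4%, lie near the 38.9% and 33% over all genes. Tef (chr15:81802421-81826863, + strand), a PAR bZIP transcription factor, was at 38.0, 30.8 and 36.2 CPM in con and 90.7, 84.4 and 79.7 in LSF (1.28 ± 0.09). Dbp, of the same family, was at 6.61, 8.11 and 10.6 CPM in con and 10.7, 11.2 and 13 in LSF (0.47 ± 0.18, adjusted p = 0.0198). This call was lost without con 1 (adjusted p = 0.1507), con 2 (0.05166) or LSF 3 (0.08964), and with the trends over GC content and exon length taken out (0.6539). Bhlhe41, a repressor gene, had 1 count in con, against 118 in LSF (ratio 69.99, 95% counting interval 12.32 to 2787.6). Nfil3, which opposes the PAR bZIP factors, fell from 126 ± 4.87 to 67.1 ± 2.00 CPM.

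The E-box CACGTG, the letters through which Arntl and Clock are known to act, was searched in the promoters of the RefSeq table (250 bases before to 50 after each start, GRCm38.p6), where it reads the same on both strands. It was in 7.15% of 32851 promoters, and 1244 of 11072 tested genes with a promoter in the table (11.2%) had it in at least 1. It was found for 2 of 11 core clock genes and 3 of 7 output genes. Windows of 120 bases, read 5′ to 3′ on the gene's strand with the E-box in capitals, are shown for a core gene that rose and an output gene that fell, which share the motif though their changes went in opposite directions.
Per1, chr11:69098726-69098845, + strand: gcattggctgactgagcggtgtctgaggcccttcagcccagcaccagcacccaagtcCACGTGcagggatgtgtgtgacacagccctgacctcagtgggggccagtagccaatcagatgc
Ciart, chr3:95882246-95882365, - strand: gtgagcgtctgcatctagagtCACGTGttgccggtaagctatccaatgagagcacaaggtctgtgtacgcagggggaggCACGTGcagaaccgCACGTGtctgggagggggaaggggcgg
Per1 rose from 21.7, 23.1 and 21.4 CPM to 30.3, 31.5 and 28.3 (0.44 ± 0.12, adjusted p = 0.00064). Ciart, a repressor of the clock, was low throughout, at 2.48, 4.16 and 2.76 CPM in con and 1.45, 1.67 and 1.99 in LSF (-0.88 ± 0.36, adjusted p = 0.028). Per1 has 1 match in its window and Ciart 3. A match describes letters and does not show that a factor binds there. A further 3 motifs were searched the same way on both strands. The sterol response element TCACNCCAC was found for 1 of 17 cholesterol genes (1.45% of tested genes), the cyclic AMP response element TGACGTCA for 1 of 13 gluconeogenesis and 4 of 27 immediate early genes (3.38%), and the xenobiotic response element TTGCGTG for 1 of 40 xenobiotic genes (1.93%).

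**Figure D4:**
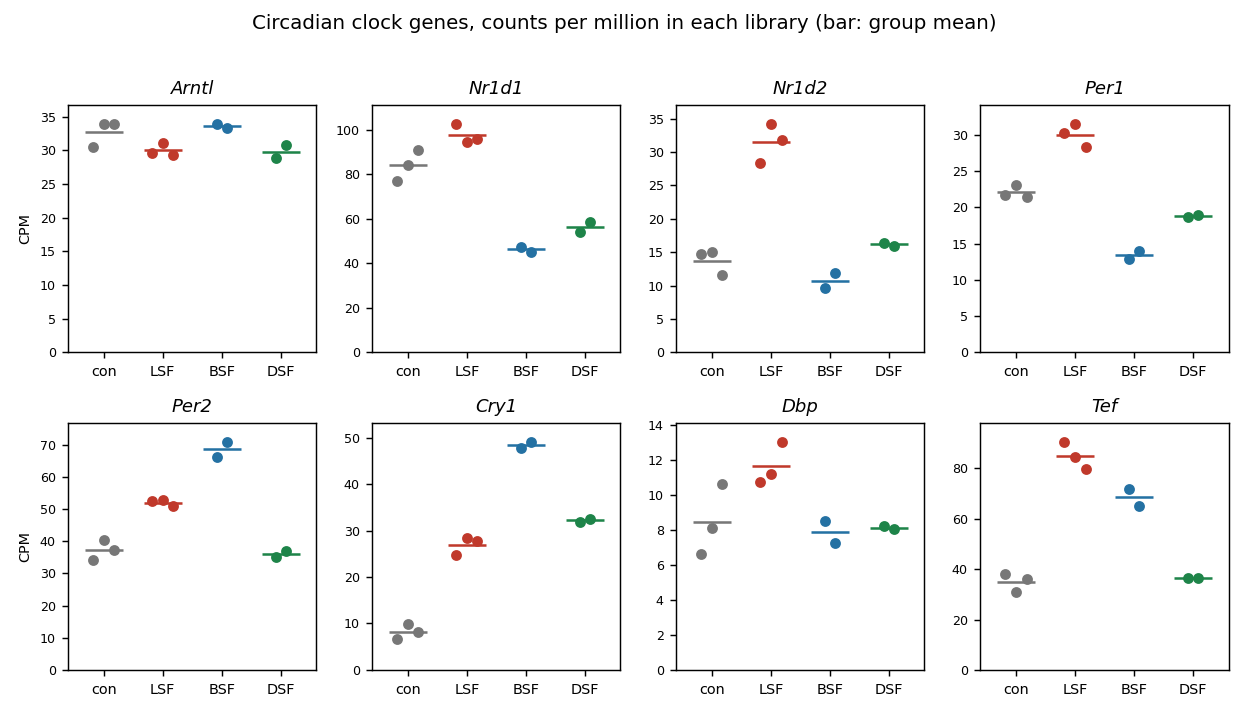
CPM of 8 clock genes in every library (dots, linear axes from 0) with the group mean (bar) for con, LSF, BSF and DSF. Arntl is at 29.4 to 33.9 CPM in all con and LSF libraries, Cry1, Nr1d2 and Tef are higher in each LSF library than in any con library, and Nr1d1 is higher in LSF than in BSF and DSF.

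Interferon-stimulated genes, which encode antiviral proteins, were mostly lower in LSF. Of 52 tested, 6 rose and 34 fell (median -0.64). Oasl2, a gene of the oligoadenylate synthetase family, was at 623, 643 and 688 CPM in con and 180, 183 and 167 in LSF (-1.88 ± 0.06). The immunity-related GTPase gene Irgm1 fell by 2.03 ± 0.06 and Lgals3bp, a secreted glycoprotein gene, by 1.59 ± 0.05. Ifit1, which binds foreign RNA, rose, from 37.4, 45.5 and 36.4 CPM to 84.3, 77.2 and 83.1 (1.03 ± 0.09). The interferon-stimulated response element was searched on both strands as GAAA, any 2 bases and GAAA again, with overlapping matches counted, in the same promoters. It was in 3.44% of all promoters and in those of 421 of 11072 tested genes (3.8%), and it was found for 23 of 41 genes of the list with a promoter in the table. Among members that fell it was found for 15 of 27, and among those that rose for 3 of 4. The windows of 2 genes that fell and of Ifit1 are shown because all carry the element (capitals) whatever their direction.
Isg15, chr4:156200826-156200945, - strand: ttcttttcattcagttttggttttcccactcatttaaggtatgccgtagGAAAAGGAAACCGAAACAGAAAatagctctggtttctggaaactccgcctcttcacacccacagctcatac
Oas3, chr5:120777670-120777789, - strand: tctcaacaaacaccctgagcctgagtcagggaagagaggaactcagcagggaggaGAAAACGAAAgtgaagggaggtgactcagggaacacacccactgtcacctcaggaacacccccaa
Ifit1, chr19:34640739-34640858, + strand: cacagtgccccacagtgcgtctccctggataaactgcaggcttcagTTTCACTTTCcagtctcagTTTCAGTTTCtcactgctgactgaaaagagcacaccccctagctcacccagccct
Isg15, a ubiquitin-like modifier with 3 overlapping matches, fell from 57.0, 68.0 and 73.9 CPM to 36.5, 37.0 and 38.4 (-0.83 ± 0.09). Oas3, with 1 match, fell from 153, 150 and 176 CPM to 51.9, 46.9 and 44.0 (-1.74 ± 0.08). Ifit1 has 2 matches, which in its window appear as the reverse complement.

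Of 7 MHC class II genes 6 rose and none fell (median 0.80). Cd74, the invariant chain, went from 42.3, 33.1 and 37.5 CPM to 67.1, 64.1 and 63.5 (0.79 ± 0.09), and H2-Ab1 and H2-Aa rose by 2.04 ± 0.16 and 2.18 ± 0.20. Some leukocytes also express class II genes. The leukocyte sum was higher in LSF, mainly through granzyme and T cell genes. Myeloid genes were split. Csf1r (29.5 ± 4.25 to 17.5 ± 2.5 CPM) and Itgam (12.1 ± 0.373 to 5.81 ± 0.998) fell, whereas Itgax and Lyz2 averaged 5.37 and 6.67 CPM in LSF against 0.222 and 0.361 in con. The B cell genes Cd79a and Ms4a1 were not called. The part of leukocytes in the rise of class II genes was not tested. Of 19 class I and immunoproteasome genes 12 rose and 5 fell, with H2-Q2 (1.85 ± 0.06), H2-Q1 (1.80 ± 0.06) and H2-T23 (1.61 ± 0.06) among the risers. These class I genes have close copies and are uncertain. Of 18 mucosal defence genes 8 rose and 9 fell, 4 and 7 of them at least 2-fold. Duox2 (chr2:122279247-122298449, - strand), the epithelial hydrogen peroxide generator, was at 281, 250 and 300 CPM in con and 9.17, 11.4 and 11.6 in LSF (-4.69 ± 0.10). Its maturation factor gene Duoxa2 fell by 3.01 ± 0.21, and the gasdermin genes Gsdmc4 and Gsdmc2 by 3.05 ± 0.19 and 2.85 ± 0.23. Reg1, a secreted lectin gene, rose from 30.8 ± 0.992 to 195 ± 2.92 CPM and Gsdmd, the pore-forming gasdermin of pyroptosis, from 50.5 ± 2.29 to 226 ± 9.48 CPM.

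Genes of the crypt split by cell type. All 10 tested Paneth cell genes, which encode antimicrobial products of the crypt base, were higher in LSF (median 1.95). Lyz1, lysozyme, went from 297, 267 and 309 CPM to 1134, 1059 and 1093 (1.91 ± 0.05), the defensin gene Defa24 rose by 2.76 ± 0.11 and the lectin gene Itln1 by 2.77 ± 0.11. Of 20 stem cell and Wnt target genes 2 rose and 16 fell (median -0.93). Olfm4, a marker of crypt base stem cells, went from 2885, 2853 and 2706 CPM to 1296, 1303 and 1305 (-1.11 ± 0.04). Ephb2, the receptor that holds cells in the crypt, fell by 1.93 ± 0.06 and Smoc2 by 1.56 ± 0.07. Lgr5, the stem cell receptor, fell by 0.61 ± 0.12, whereas Ascl2, a stem cell transcription factor, rose by 1.83 ± 0.19. Of 38 proliferation genes 5 rose and 23 fell (median -0.32). The cell cycle transcription factor gene Foxm1 fell by 1.68 ± 0.07, the cyclin gene Ccna2 by 1.20 ± 0.06 and the mitotic kinase gene Aurka by 1.31 ± 0.10, whereas Pcna, the replication clamp, rose by 0.65 ± 0.08. Of 12 goblet cell genes 6 rose and 3 fell, the lectin gene Zg16 (1.70 ± 0.06) and the mucus protease gene Clca1 (0.88 ± 0.07) against Fcgbp (-0.46 ± 0.04). With the trends over GC content and exon length taken out (described with the ribosomal genes), 3 goblet genes were higher. Of 17 enteroendocrine genes 5 rose, secretin Sct (1.42 ± 0.13) and somatostatin Sst (2.11 ± 0.22) among them, and 2 fell, with Chgb at -0.60 ± 0.06. Of 12 tuft cell genes 6 rose, with Dclk1 at 1.34 ± 0.21 and Ptgs1 at 2.25 ± 0.39, and 2 fell, with Trpm5 at -0.60 ± 0.09.

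Stress and early response genes were mixed. Of 33 immediate early genes, which respond within minutes to stimuli that include tissue handling, 11 rose and 17 fell (median -0.18). Egr1 went from 1121, 1100 and 1163 CPM to 280, 292 and 294 (-1.97 ± 0.05), and Fosb and Atf3 fell by 1.97 ± 0.06 and 1.83 ± 0.06. Jund, a member of the AP-1 factors, rose instead, from 84.9, 178 and 126 CPM to 710, 693 and 688 (2.42 ± 0.09). Of 16 heat shock genes 10 rose and 5 fell. The chaperone genes Hspa8, Hsp90aa1 and Hspd1 rose by 1.10 ± 0.05, 1.64 ± 0.07 and 0.78 ± 0.06, and the stress-inducible Hspa1a fell by 1.81 ± 0.16. Of 19 ATF4 targets, which respond to amino acid shortage and unfolded proteins, 4 rose and 11 fell (median -0.50). Atf4 fell by 0.79 ± 0.05 and the amino acid carrier gene Slc7a5 by 1.14 ± 0.09. Cebpb, a transcription factor gene with 1 exon, had 14 counts in all of con and stood at 143, 139 and 146 CPM in LSF (7.13 ± 0.15), and it averaged 124 CPM in BSF and 141 in DSF.

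Of 81 cytosolic ribosomal protein genes 66 rose and 4 fell (median 0.73), with Rpl36 (1.61 ± 0.07), Rps2 (1.35 ± 0.06) and Rpl4 (1.23 ± 0.05) among them, and of 80 nuclear genes of the respiratory chain 54 rose and 8 fell (median 0.74). At least 2-fold, 24 ribosomal and 25 respiratory genes rose and none fell. Atp5a1, a subunit gene of the ATP synthase, rose from 554 ± 23.7 to 1140 ± 26.9 CPM, and Cox6a1, a subunit gene of cytochrome oxidase, by 1.66 ± 0.08. Cox6a2, the form of that subunit in heart and skeletal muscle, had 4 counts in con and 37.4, 33.3 and 33.2 CPM in LSF (6.84 ± 0.29), beside heart muscle sums of 389, 346 and 385 CPM. Of 13 mitochondrially encoded genes 4 rose and 7 fell, mt-Co3 (-1.08 ± 0.06), mt-Atp8 (-1.22 ± 0.07) and mt-Co1 (-0.58 ± 0.03) among the fallers. The median log2 fold change over all genes also moved with GC content, from 0.37 in the fifth of genes with least GC to -0.11 in the third and 0.15 in the fifth with most, and it was 0.32 in the fifth with the shortest exon length. With these trends removed, 60 ribosomal and 41 respiratory genes rose, and all 13 mitochondrially encoded genes fell.

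LSF was then tested directly against BSF and against DSF, comparisons that hold no con library. Against BSF, 4190 of 14300 genes differed (29.3%), 2269 higher (15.9%) and 1921 lower (13.4%) in LSF, and 789 (5.52%) differed at least 2-fold, 490 (3.43%) higher and 299 (2.09%) lower. Against DSF, 2271 differed (15.9%), 1283 higher (8.97%) and 988 lower (6.91%), and 203 (1.42%) differed at least 2-fold, 166 (1.16%) higher and 37 (0.259%) lower. These counts depended on the few libraries, with 2557 without BSF 1, 2583 without BSF 2, 1288 without DSF library a and 1430 without DSF library b, when the remaining library was taken to vary like the other groups. The DSF libraries are lettered here because their labels and columns number them differently. The share of higher calls also depended on the scaling. With library totals alone it went from 54.2% to 37.1% against BSF and from 56.5% to 38% against DSF, while against con it went from 54.1% to 59.5%.

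Several genes, most of them named above, were higher in LSF than in either other pattern. Pck1, at 483 to 493 CPM in LSF, was at 54.5 and 60.2 CPM in BSF and 71.2 and 69.5 in DSF, log2 differences of 3.09 ± 0.07 and 2.80 ± 0.07. Cyp2c29, at 28.7, 28.6 and 29.1 CPM in LSF, averaged 3.11 CPM in BSF and 3.08 in DSF (differences of 3.18 and 3.22). Cyp3a11 averaged 168 CPM in BSF and 178 in DSF (2.10 and 2.02). Pdk4 was higher in LSF by 1.94 and 1.70, Klf15 by 2.13 and 1.71, Sgk1 by 1.39 and 2.02, Mt2 by 2.29 and 1.60, and Fkbp5 by 0.79 and 1.34. Slc16a9, a carnitine and monocarboxylate carrier gene, averaged 18.9 CPM in LSF, 11.1 in BSF and 3.22 in DSF (0.78 and 2.55). These 9 genes were picked with their values known. Each was higher in LSF at an adjusted p under 0.05 in both tests, so their number is no separate result. Cpt1a differed little, by 0.18 (adjusted p = 0.019) against BSF and 0.04 (adjusted p = 0.71) against DSF.

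Most nutrient and drug metabolism lists had more members higher than lower in LSF in both tests. Over all genes, 15.9% were higher and 13.4% lower than in BSF, and 8.97% higher and 6.91% lower than in DSF. Of 16 gluconeogenesis genes 10 were higher and none lower than in BSF, and 9 higher and 1 lower than in DSF. Of 38 fatty acid oxidation genes 22 were higher and 1 lower than in BSF, and 23 higher and none lower than in DSF. Of 15 peptidases 14 and 13 were higher and none lower, and of 44 xenobiotic genes 32 were higher and 1 lower in each test. Sugar genes (11 higher and 1 lower of 14 against BSF, 13 higher and none lower against DSF) and amino acid transporters (12 and 13 higher of 16, 1 lower in each) went the same way, with Slc6a19 higher by 1.07 and 0.80. Cholesterol synthesis genes were lower, 15 of 25 against BSF with 1 higher and 17 against DSF with none higher, and Cyp51 differed by -0.60 and -0.76. Those cholesterol counts dropped to 8 without BSF 1 and 8 without BSF 2, and to 11 without DSF library a. Proliferation genes were lower for 28 of 38 against BSF (18 without BSF 1) and for 22 against DSF (10 and 14 without DSF library a or b), and none was higher. Of 32 lipid absorption genes 22 were higher and 1 lower than in BSF, and 23 higher and none lower than in DSF. Among them Apoa4 averaged 14029 CPM in BSF and differed by 0.02 (adjusted p = 0.81), and was higher than in DSF by 0.60.

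**Figure D5:**
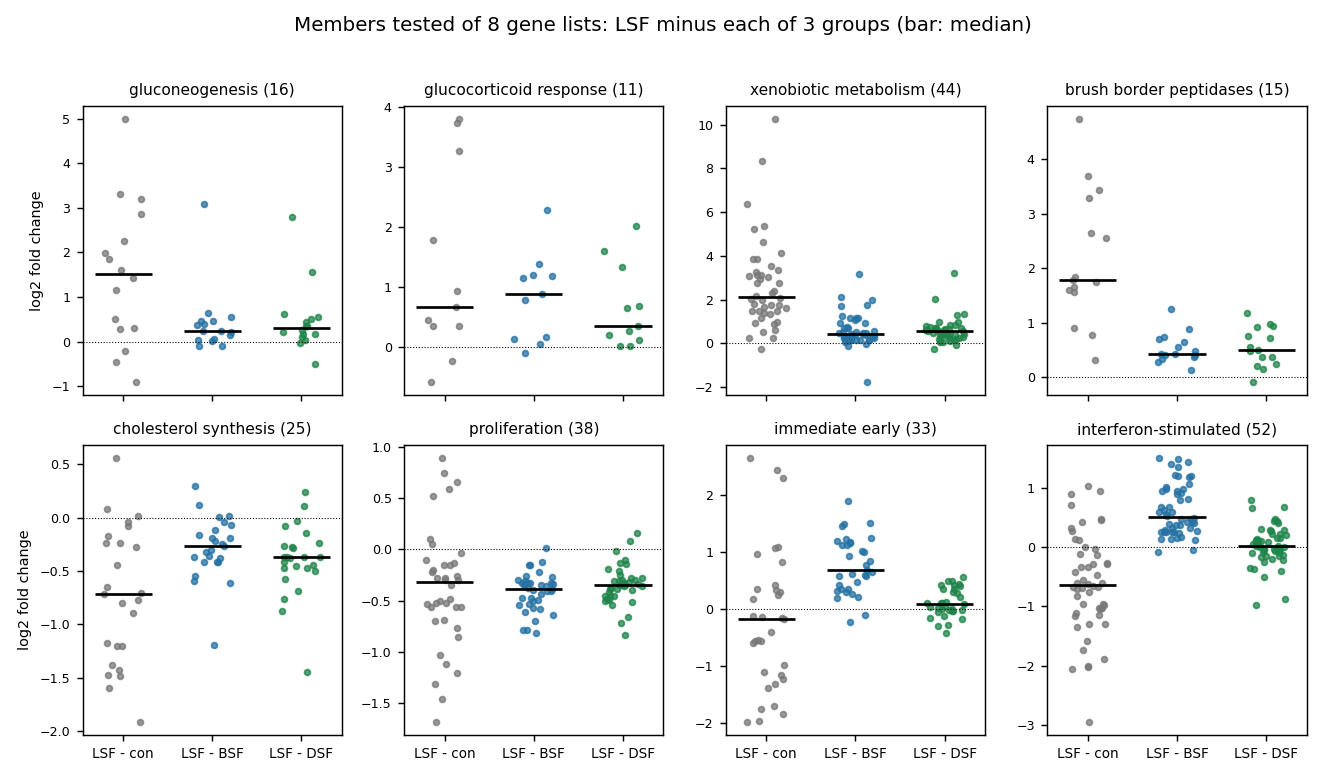
Log2 difference of each tested member (dots) of 8 gene lists for LSF minus con, LSF minus BSF and LSF minus DSF, with the list's median (bar). Gluconeogenesis and drug metabolism genes lie mostly above 0 in all 3, whereas interferon and immediate early genes lie mostly below 0 against con and above 0 against BSF.

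Of 52 interferon-stimulated genes 40 were higher and none lower in LSF than in BSF, but 8 were higher and 7 lower than in DSF (5 higher without DSF library a). Against BSF 76.9% of this list was higher, beside 15.9% of all genes. Against DSF 15.4% was higher and 13.5% lower, beside 8.97% and 6.91% of all genes. Oasl2 averaged 84.6 CPM in BSF, 1.06 lower than LSF on the log2 scale, and 177 in DSF, a difference of -0.01 (adjusted p = 0.97). Of 33 immediate early genes 28 were higher and none lower than in BSF, and 8 higher and 3 lower than in DSF, with Egr1 higher by 1.44 and 0.35. Whether LSF differed from BSF by more than from DSF was not tested. MHC class II genes were lower in LSF than in both, 5 and 4 of 7 with none higher, and Cd74 averaged 134 CPM in BSF and 143 in DSF (-1.05 and -1.14). Paneth cell genes were lower for 6 of 10 against BSF and 4 against DSF, the latter 1 without DSF library a, 2 without library b, and 2, 1 and 2 without LSF 1, 2 and 3. Cyp1a1 was lower in LSF than in BSF by 1.78 on the log2 scale, with a mean of 247 CPM there, and higher than in DSF by 0.58. Duox2 averaged 42.7 CPM in DSF and was lower in LSF by 1.99, as were Gsdmc2 and Gsdmc4 by 2.16 and 2.11 and Nos2, the inducible nitric oxide synthase gene, by 1.99.

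Clock genes differed from BSF and DSF in part in opposite directions. Nr1d1 averaged 46.2 CPM in BSF and 56.4 in DSF and was higher in LSF by 1.08 and 0.79, and Nr1d2 and Per1 were higher in both tests too (1.54 and 0.96, 1.15 and 0.68). Per2 was lower in LSF than in BSF by 0.40 but higher than in DSF by 0.53. Cry1 was lower than in BSF by 0.85 and differed from DSF by -0.26 (adjusted p = 0.11). Tef was higher than in BSF by 0.31 and than in DSF by 1.22. Arntl differed from neither at the threshold (-0.16, adjusted p = 0.26, and 0.01, adjusted p = 0.97).

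Among the largest rises over BSF were those of Ccn2 and Thbs1, extracellular matrix genes, and they varied within LSF. Ccn2 was at 5.91 CPM in LSF 1 but 39.4 and 46.1 in LSF 2 and 3, and Thbs1 at 6.52, 36.0 and 34.8. The fibroblast marker sum was lowest in LSF 1 as well (39.8, 64.1 and 65.6 CPM) and was 20.5 and 20.2 CPM in BSF, and its part in these differences was not tested. Among the largest falls from BSF besides Cyp1a1 were those of Slc6a11, Kcnj10 and Adcyap1r1, genes known from neurons and glia, with log2 differences of -1.78, -1.71 and -1.62. The enteric neuron and glia marker sum was 43.2 and 38.3 CPM in BSF and 21.1 to 27.1 in LSF, with 3 of 8 tested genes lower in LSF. The brain marker sum was 213 and 208 CPM in BSF and 149 to 154 in LSF, with 7 of 8 tested genes lower. Mbp alone averaged 143 CPM in BSF and 120 in LSF. In con, where 6 of the 10 brain markers were at 0, the sum was 224 to 252 CPM. The part of such transcripts in these falls was not tested. Slc6a3, a dopamine transporter gene, averaged 5.33 CPM in LSF and 0.919 in DSF (2.51 higher), and Armc2 was at 2.53, 1.54 and 2.52 CPM in LSF and 6.17 on average in DSF (-1.48).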

How the data were processed

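Per the labels' protocols, polyadenylated RNA of sorted jejunal epithelial cells was sequenced. The authors deposited raw counts per gene symbol as whole numbers, with no normalization, and the submitters' processing notes name FastQC 0.11.8, cutadapt 2.9, STAR 2.7.2e, DESeq2 1.32.0 and the builds GRCm38 and mm10. Annotation, strand and multimapping settings are not stated in the sources used here, so overlapping, antisense and near-identical genes are uncertain. Coordinates came from GENCODE M21 on GRCm38 (21756 of 21868 symbols matched, 99.5%), and promoter sequences from RefSeq (GRCm38.p6).

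Genes kept by filterByExpr (14300, with 99.91% of counts) were scaled by trimmed means (TMM) and tested with the quasi-likelihood test of edgeR 4.0.16 (R 4.3.3), two-sided, in 1 fit of 13 libraries by group with 8 residual degrees of freedom. P-values were Benjamini-Hochberg adjusted over all genes, with a threshold of 0.05. The SE is the log2 fold change over the square root of F, not the coefficient's own error. The common biological coefficient of variation was 4.87%. The floor of 3 counts over a group is 0.214 CPM in con and 0.127 in LSF, and, like the counting intervals, it covers counting error alone. The procedure was tested on simulated data.

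The gene lists (35 of functions, 14 of markers) and tests were chosen with earlier results of these data known. Against con, the genes named were the 8 largest rises and 8 largest falls whose libraries did not overlap and whose higher group averaged 5 CPM or more, without mitochondrial genes, unnamed models and markers of other cell types. Added to these were the 3 called members of each list with the smallest p and 8 fixed genes, and against BSF and DSF the 5 largest rises and falls. Some genes taken by this rule are left out of the text. Other members were chosen after their values were seen: G6pc, Pck2, Got2, Angptl4, Ppara, Hnf4a, Cdh1, Alpi, Krt20, Gzma, Gzmb, Cd8a, Csf1r, Itgam, Itgax, Lyz2, S100a8, Cd79a, Ms4a1, Fkbp5, Tsc22d3, Dusp1, Cd36, Fabp2, Ebp, Scd1, Srebf1, Slc5a1, Slc1a5, Nqo1, Nr1d2, Per1, Ciart, Ifit1, Isg15, Oas3, Duoxa2, Lgr5, Ascl2, Pcna, Jund and Hspa1a. Labels number the DSF libraries 1 and 2, the columns S2 and S3. Same-numbered con and LSF libraries did not deviate together (correlations -0.0189, 0.0214 and -0.015), so numbers were not used as pairs. Alternatives were DESeq2 1.42.0 size factors and Wald test, limma-voom (limma 3.58.1), totals alone, no filter, only the compared groups, thinning, GC content and length trends removed, marker genes left out, a replicate block and each library left out. Leaving out BSF and DSF libraries was added after seeing the data.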

Additional observations from a re-analysis of the deposited data

How the results depend on the processing

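The counts of LSF against con kept within 1.5 times of their values under every alternative run, from 9163 to 10865 genes called. With library totals alone, 2942 genes were lower in LSF than in BSF (1921 as reported) and 1651 lower than in DSF (988). With 1 library left out, LSF against con gave 9869 to 10088 genes called, LSF against BSF 2557 to 3493 (1479 to 1973 higher, 1062 to 1520 lower) and LSF against DSF 1288 to 1866 (808 to 1110 higher, 480 to 756 lower), the lowest values each with a BSF or DSF library left out. Of 2308 recomputed values for 147 results on named genes, 2301 kept direction and side of the threshold and 6 lost the call, all of Nr1d1 and Dbp against con. For the tests against BSF and DSF, these results hold only the largest rises and falls taken by the naming rule. Differences from BSF and DSF given for other genes, among them Pdk4, Klf15, Sgk1, Tef, Oasl2 and Cd74, were not recomputed. Neither were genes chosen after their values were seen, so their stability is not covered by this count. Nr1d1 was at 0.15 without con 1 and 0.18 without LSF 1, and Dbp at 0.32 without con 1, 0.45 without con 2, 0.39 without LSF 3 and 0.09 with GC and length trends removed. Arntl, not called in either, turned from -0.12 to 0.0136 with those trends removed (adjusted p = 0.9087). The cause was not tested. Of 1540 recomputed list counts 91 moved by over 1.5 times, of which 2 concern con. In the replicate block fit of con and LSF alone 9163 genes were called, against 9309 in the same libraries without the block. Of the 9163, 9158 were also called in the main fit of 13 libraries. Not every con library correlated best with the LSF library of its number. Depth limits genes near 3 counts in a group, and 2 libraries in BSF and DSF limit the tests against them.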
